A study of Mus musculus with 6 samples.

Results

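The genes described here are 36 genes of glucose breakdown and of the response to low oxygen, among 55536 genes listed in each RNA sequencing library of the mouse cell line SVEC4-10. They were chosen by name, matched to Ensembl gene identifiers through GENCODE M21, and fall into 22 genes of glycolysis and its transporters and 14 genes that respond to, encode or regulate hypoxia-inducible factor (HIF). Cells exposed to nattokinase over 24 hours gave 3 libraries, and cells labelled as control gave 3 control libraries. Nattokinase is a protease from Bacillus subtilis that degrades fibrin, and neither its dose nor the oxygen level is stated. Every dish held high-glucose medium (4.5 g/L) with serum at 10% under 5% CO2, and the cells were near 80% confluent when treatment began. SVEC4-10 is an immortalised line, so both groups are models of 1 line only, and nothing in the labels says that the replicates were separate cultures. The p-values therefore reflect only how these samples varied, and that variation may be technical.

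Glycolysis turns glucose into pyruvate in the cytosol. Glucose enters through GLUT transporters, is phosphorylated by hexokinase, committed by phosphofructokinase, split by aldolase and oxidised from glyceraldehyde-3-phosphate dehydrogenase onwards. Lactate dehydrogenase and the monocarboxylate transporters then dispose of the pyruvate as lactate. Many of these genes are known targets of HIF, a transcription factor whose alpha subunit is hydroxylated by oxygen-dependent prolyl hydroxylases and then destroyed through the VHL ubiquitin ligase. Endothelial cells are known for relying strongly on glycolysis, with the product of Pfkfb3 as a main driver.

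In treated cells 7 of 31 tested members fell and 0 rose at an adjusted p under 0.05 in limma, a linear model fitted over all genes. It called 3.24% of all tested genes lower and 5.61% higher, that is 8.85% in either direction. Pfkfb3, which makes the activator of phosphofructokinase, the phosphofructokinase gene Pfkl, the isomerase gene Gpi1, the pyruvate dehydrogenase kinase gene Pdk1, both lactate transporter genes Slc16a1 and Slc16a3, and the collagen hydroxylase gene P4ha1 were lower, at 0.708 to 0.862 of their control levels. A further pair, the carbonic anhydrase genes Car9 and Car12, passed the filter on low values only through the control libraries, where they were high, so their difference was built into their passing and supports no count here. With this pair, 8 of 33 tested members were past the threshold. The glucose transporter and hexokinase genes, Ldha, Hif1a, Egln1 and Egln3 did not pass the test. In these bulk libraries, fewer cells with a transcript and less of it per cell cannot be told apart.

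HIF binds DNA at a short core, ACGTG or GCGTG. This core was searched on both strands in the 250 bases before each RefSeq start site on GRCm38.p6, where it reads CACGT or CACGC on the other strand, and the palindrome CACGTG counts as a match on each strand. At least 1 window with the core was found for 19 of 22 glycolysis members and 10 of the 12 HIF-responsive members in the RefSeq table. This held for 63.7% of the tested genes in that table and 41.5% of all its genes. Counted by window, the core was in 77.1% for glycolysis members and 71.4% for HIF-responsive members. The share of windows was 57.65% for tested genes and 38.6% for the whole table. Of the 7 members that fell 6 had the core (85.7%), as did 19 of 22 tested members that did not pass (86.4%), leaving out Car9 and Car12. A match is a run of letters and not a site that was shown to be bound. The windows below belong to 3 members that fell, chosen because they hold no annotated exon, and to Pgk1, a member with the core that did not pass the test; capitals mark the core in either orientation. They lie at chr2:71872974-71873223 (Pdk1), chr3:104638414-104638663 (Slc16a1), chr10:59323046-59323295 (P4ha1) and chrX:106186850-106187099 (Pgk1), all on the plus strand.
Pdk1: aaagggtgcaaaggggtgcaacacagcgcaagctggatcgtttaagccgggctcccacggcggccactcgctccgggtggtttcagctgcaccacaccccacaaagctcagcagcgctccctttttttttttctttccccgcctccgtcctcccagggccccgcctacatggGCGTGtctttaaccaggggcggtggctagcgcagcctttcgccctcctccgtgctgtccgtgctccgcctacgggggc
Slc16a1: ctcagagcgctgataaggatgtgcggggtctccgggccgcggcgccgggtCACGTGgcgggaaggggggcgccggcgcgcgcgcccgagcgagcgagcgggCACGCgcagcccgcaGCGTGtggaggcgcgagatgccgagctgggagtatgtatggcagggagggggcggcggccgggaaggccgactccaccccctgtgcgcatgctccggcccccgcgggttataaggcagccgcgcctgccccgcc
P4ha1: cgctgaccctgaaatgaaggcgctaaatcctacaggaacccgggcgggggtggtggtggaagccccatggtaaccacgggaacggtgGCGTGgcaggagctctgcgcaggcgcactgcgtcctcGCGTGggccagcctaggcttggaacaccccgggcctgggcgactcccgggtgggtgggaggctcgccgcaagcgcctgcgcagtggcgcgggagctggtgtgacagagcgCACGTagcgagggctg
Pgk1: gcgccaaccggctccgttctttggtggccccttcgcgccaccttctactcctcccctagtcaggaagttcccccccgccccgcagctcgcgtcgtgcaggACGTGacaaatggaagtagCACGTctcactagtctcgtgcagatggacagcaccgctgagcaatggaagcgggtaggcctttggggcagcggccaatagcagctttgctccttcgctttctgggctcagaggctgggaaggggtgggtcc
The single core of Pdk1 begins 78 bases before its start. Slc16a1 has 4 matches, of which the pair at 200 and 199 bases forms a palindrome. P4ha1 has 3, the nearest at 16 bases, and Pgk1 has 2, at 150 and 131 bases. The core was thus common among members whether or not they fell.

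Levels were deposited as FPKM, that is, reads scaled to exon length and to the number of reads assigned in the library. They differed widely among the members. In treated cells Gapdh averaged 398 ± 9.31 FPKM and Pfkfb4 averaged 1.96 ± 0.255 FPKM (SD, n = 3), and in controls Gapdh averaged 431 ± 29.2 FPKM and Pfkfb4 2.21 ± 0.193 FPKM. The enzymes from aldolase to lactate dehydrogenase were the abundant ones, with Aldoa, Tpi1, Gapdh, Pgk1, Pgam1, Eno1, Pkm and Ldha all between 158 and 448 FPKM in every library. Among the HIF-responsive genes Mif, a cytokine gene, was the most abundant at 340.2 ± 27.2 FPKM in treated cells and 350 ± 22.7 FPKM in controls. A filter of at least 1 FPKM in at least 3 libraries was passed by 21 glycolysis members and 12 HIF-responsive members. The brain aldolase gene Aldoc, with 3 to 10 reads per library, the ankyrin-repeat gene Ankrd37 and the vasodilator peptide gene Adm were not tested.

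**Figure D1:**
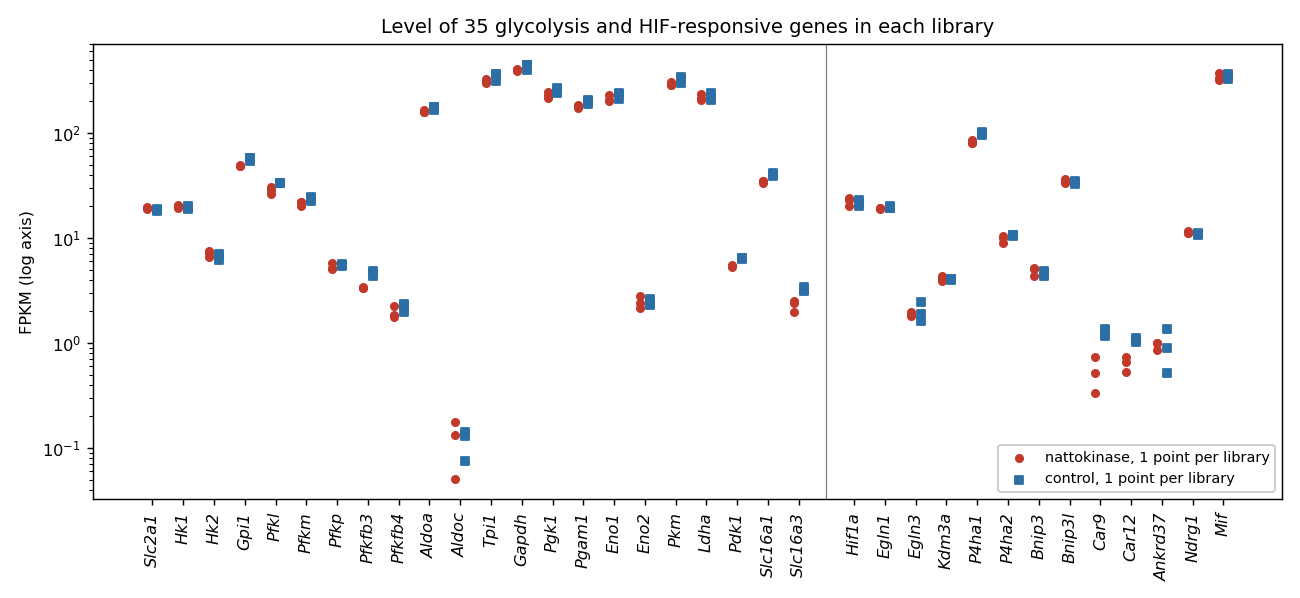
FPKM on a log axis for 35 members in each library, nattokinase libraries as red circles and control libraries as blue squares, glycolysis members left of the line and HIF-responsive members right of it (Adm, at 0 in 4 libraries, is left out). The abundant enzymes lie between 158 and 448 FPKM, and the 2 groups stand clearly apart for Pfkfb3, Slc16a3, Car9 and Car12.

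Members were tested within a fit over all genes, with limma on log2(FPKM + 1) and Benjamini-Hochberg adjustment over 10913 genes, and log2 fold changes are given on that scale, which understates changes of low genes. Of all tested genes 3.24% fell and 5.61% rose at an adjusted p under 0.05. Among the glycolysis members 6 of 21 fell and 0 rose, with 0 higher and 11 lower at an unadjusted p under 0.05, where 8.67% of all tested genes were lower and 14.2% higher. By limma-voom on recovered reads 0 were higher and 6 lower, beside 4.23% of all tested genes lower. Their median log2 fold change was −0.13, beside 0.01 for all tested genes. Below 0 were 18 of 21, beside 5010 of all 10913 tested genes. Among the HIF-responsive members other than Car9 and Car12, 1 of 10 fell and 0 rose, with a median of −0.0049. With Car9 and Car12 the count past the threshold was 2 of 12, with 0 higher at an unadjusted p under 0.05 or by limma-voom and 3 lower by each. Leaving out 1 library changed the glycolysis count to 4, 2 and 1 for nattokinase replicates 1, 2 and 3, and to 11, 1 and 1 for control replicates 1, 2 and 3. Without nattokinase replicate 2 or 3 the HIF-responsive count of 2 became 1.

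**Figure D2:**
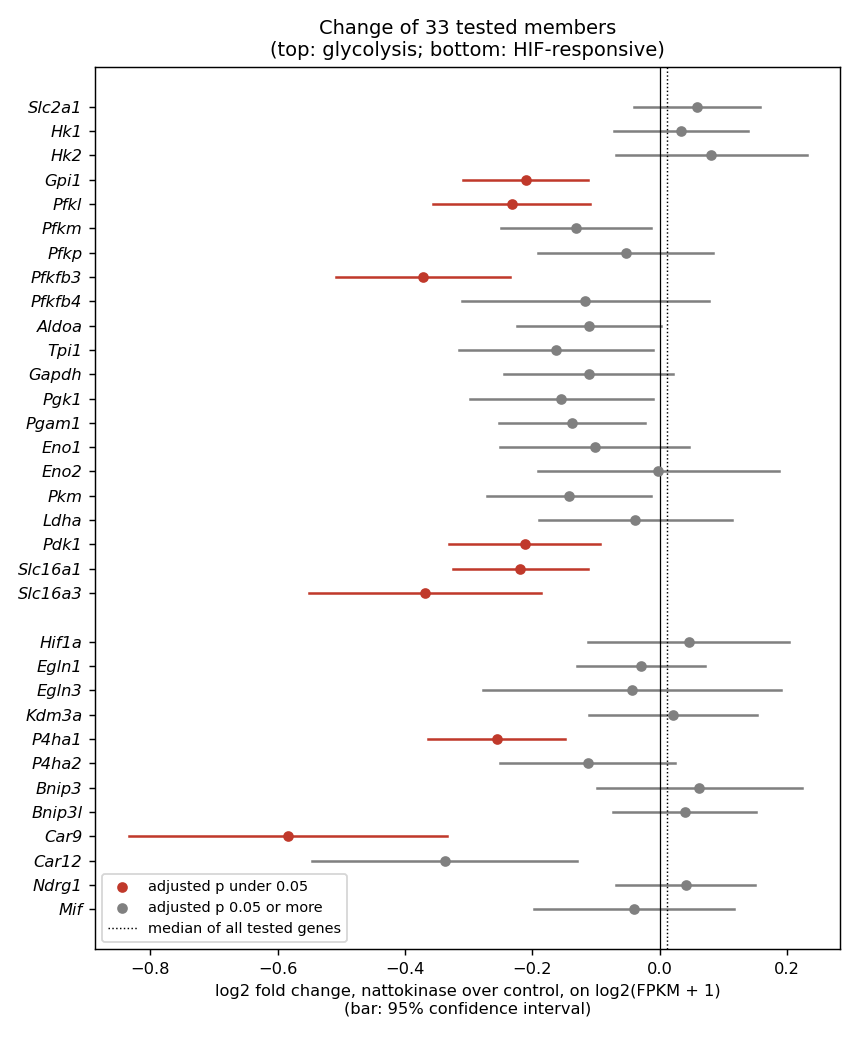
Log2 fold change of the 33 tested members, nattokinase over control, with 95% confidence intervals, in red where the adjusted p is under 0.05. The red members run from −0.58 for Car9 to −0.21 for Gpi1 and Pdk1, and no member lies to the right of 0.081. Car9 and Car12 passed the filter only through the controls.

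At the entry of the pathway no member passed the test. Slc2a1, which encodes the glucose transporter GLUT1, had 19.5, 18.8 and 19.7 FPKM in treated cells, against 18.1, 18.7 and 18.7 FPKM in control cells. The 3 treated libraries lay above all 3 controls by a narrow margin, as did 17.4% of all tested genes, and the log2 fold change was 0.06 (95% confidence interval −0.04 to 0.16, limma adjusted p = 0.48). Hk2, the inducible hexokinase gene, had 7.54, 6.54 and 7.13 FPKM in treated cells and 7.02, 6.19 and 6.68 FPKM in controls, and these overlap. Its log2 fold change was 0.08 (interval −0.07 to 0.23). Hk1, the constitutive hexokinase gene, averaged 20.1 ± 0.67 FPKM in treated cells and 19.6 ± 0.56 FPKM in controls, with an interval of −0.07 to 0.14. Hexokinase 2 made up 26.05% ± 1.92 of the summed FPKM of both genes in treated cells and 25.3% ± 1.6 in controls (SD, n = 3 each).

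The steps around phosphofructokinase held 3 of the members that fell. Gpi1, which converts glucose-6-phosphate to fructose-6-phosphate, had 49.8, 48.3 and 48.4 FPKM in treated cells, against 54.6, 57.7 and 57.7 FPKM in controls, so the groups do not overlap, as for 11.4% of all tested genes in that direction. The log2 fold change of Gpi1 was −0.21 (SE 0.044, limma adjusted p = 0.016; chromosome 7, 34201330 to 34230336, GRCm38). An opposite-strand gene, Gm26762, with 0 to 7 reads, overlaps 11.5% of its exons. Pfkl, the liver-type phosphofructokinase gene, had 30.5, 26.4 and 28.8 FPKM in treated cells, against 33.6, 33.8 and 33.6 FPKM in controls. Treated libraries varied far more than the tightly grouped controls, and all lay below them. Its log2 fold change was −0.23 (SE 0.055, limma adjusted p = 0.028; chromosome 10, 77986947 to 78010083). The calls of Gpi1 and Pfkl were both lost without nattokinase replicate 2 or 3 or control replicate 2 or 3 (limma adjusted p up to 0.077 for Gpi1 and 0.11 for Pfkl).

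Pfkfb3 was called lower with each library left out in turn. Its enzyme makes fructose-2,6-bisphosphate, the activator of phosphofructokinase. Levels were 3.34, 3.31 and 3.42 FPKM in treated cells, against 4.85, 4.37 and 4.69 FPKM in controls. The treated libraries were almost equal and lay well below every control, at 0.723 of the control mean. The log2 fold change was −0.37 (SE 0.061, limma adjusted p = 0.0047; chromosome 2, 11471433 to 11554077). No other glycolysis member kept its call without each of the 6 libraries, and the limma adjusted p of Pfkfb3 was at most 0.025 there. Pfkfb4, a paralog expressed at a lower level, averaged 1.96 FPKM in treated cells and 2.21 FPKM in controls, and its groups overlap (log2 fold change −0.12, interval −0.31 to 0.08). Pfkfb3 held 59.7%, 64.1% and 65.8% of the summed FPKM of both genes in treated cells, against 68.1%, 68.7% and 66.5% in controls. These shares do not overlap, and they were not tested.

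Pfkm and Pfkp, the muscle and platelet phosphofructokinase genes, did not pass. Pfkm averaged 21.4 ± 1.06 FPKM in treated cells and 23.6 ± 0.98 FPKM in controls, with separated groups (log2 fold change −0.13, limma adjusted p = 0.17). Pfkp had 5.32 ± 0.36 FPKM in treated cells and 5.56 ± 0.14 FPKM in controls (limma adjusted p = 0.67). Exons of Pfkp overlap those of the expressed gene Pitrm1 over 5.58% of their length. Those of Pfkm overlap Gm26513, with 2 or 3 reads per library, over 10.2% and Senp1 over 0.539%, and strand use in counting is not stated. Of the summed phosphofructokinase FPKM Pfkl held 51.6% ± 2.39 in treated cells and 53.6% ± 0.86 in controls, so the liver type was the main isoform in both.

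Among the abundant enzymes of the later steps of glycolysis, 0 of 8 passed, although all 8 had a log2 fold change below 0. The same sign was found for 5010 of all 10913 tested genes. Gapdh, which encodes the dehydrogenase often used as a reference gene, had 408, 395 and 390.1 FPKM in treated cells, against 397, 447 and 448 FPKM in controls. The groups overlap only because control replicate 1 lies among the treated libraries. Its log2 fold change was −0.11 (interval −0.24 to 0.02, limma adjusted p = 0.30). The same held for Pgk1, phosphoglycerate kinase, with 248, 217 and 231 FPKM in treated cells and 241, 269 and 265 FPKM in controls (log2 fold change −0.15, interval −0.30 to −0.01, limma adjusted p = 0.18). Tpi1, the triosephosphate isomerase gene, and Pkm, the pyruvate kinase gene, had control replicate 1 within the treated range as well, at 314 FPKM beside 326, 297 and 305 FPKM for Tpi1 and at 303 FPKM beside 305, 289 and 286 FPKM for Pkm. Exons of Pkm overlap those of the same-strand gene Gm49759, with 152 to 183 reads per library, over 15.3% of their length. Pgam1, the phosphoglycerate mutase gene, had separated groups at 186, 173 and 183 FPKM in treated cells and 190.2, 206 and 200.2 FPKM in controls (limma adjusted p = 0.14).

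Without control replicate 1, which stood apart from the other libraries on the second principal component (20.3% of variance), 6 further members passed and the call of Pdk1 was lost. Over all tested genes 4.45% fell there, beside 3.24% with all libraries. The members gained were Aldoa, Tpi1, Gapdh, Pgk1, Pgam1 and Pkm, all lower, with limma adjusted p between 0.013 and 0.047 there and up to 0.58 with another library left out. Treated cells were then at 0.851 of the level of the remaining controls for Tpi1, 0.869 for Pgk1, 0.889 for Gapdh and 0.904 for Aldoa. The summed FPKM of the 22 glycolysis members was 2304, 2140 and 2175 in treated cells, against 2249, 2516 and 2465 in controls. Control replicate 1 was thus below nattokinase replicate 1 in this sum. Whether that library or the others represent the control state was not tested.

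**Figure D3:**
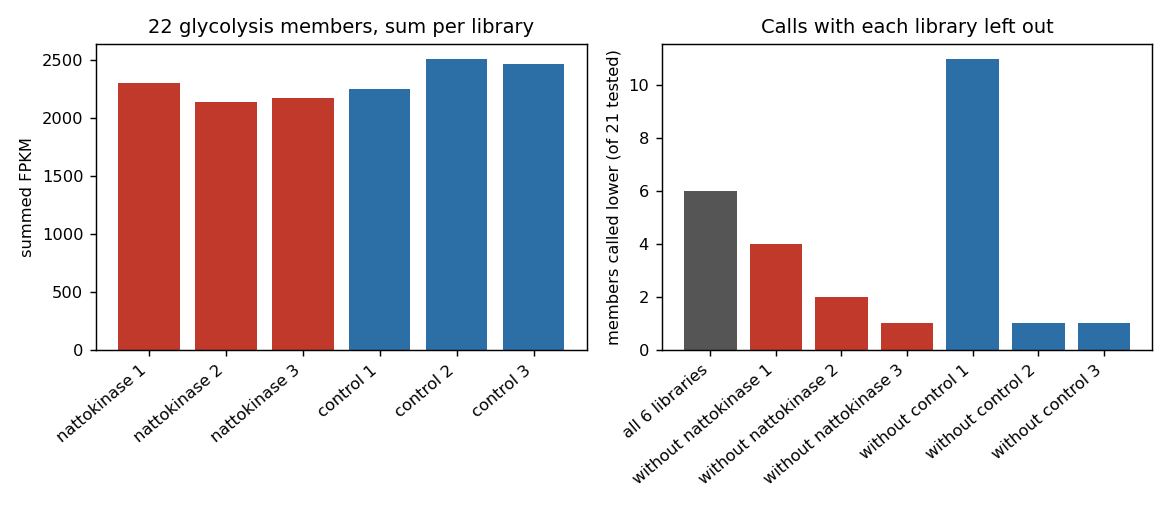
Left, summed FPKM of the 22 glycolysis members in each library, nattokinase in red and control in blue. Right, number of the 21 tested glycolysis members called lower with all 6 libraries and with each left out: 6 with all, 11 without control replicate 1, and 1 to 4 without any other.

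Eno1 and Ldha, both commonly listed HIF targets, overlapped between the groups. Eno1 had 229.6, 203 and 205 FPKM in treated cells and 212, 241 and 233 FPKM in controls (log2 fold change −0.10, limma adjusted p = 0.40). Eno1b, annotated as a separate protein-coding gene and closely similar in sequence to Eno1, was listed at 104, 87.1 and 87.0 FPKM in treated cells and 92.1, 103 and 104 FPKM in controls. Reads of this pair may have been split between them, so the level of Eno1 is uncertain to that extent. Ldha, which makes lactate from pyruvate, had 233, 207 and 214 FPKM in treated cells and 208, 242 and 222 FPKM in controls, with an interval of −0.19 to 0.11. The neuronal enolase gene Eno2 was near 2.45 FPKM in both groups, and its log2 fold change was −0.0023.

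Both lactate transporter genes and Pdk1 fell. Slc16a1, which encodes the lactate and pyruvate transporter MCT1, had 33.4, 34.9 and 35.2 FPKM in treated cells, against 38.6, 41.7 and 40.8 FPKM in controls. The groups do not overlap, and the log2 fold change was −0.22 (SE 0.047, limma adjusted p = 0.019; chromosome 3, 104638668 to 104658462). Slc16a3, which encodes MCT4, the transporter suited to lactate export, had 2.42, 2.53 and 1.96 FPKM in treated cells, against 3.13, 3.41 and 3.21 FPKM in controls. It reached 0.708 of its control level with a log2 fold change of −0.37 (SE 0.081, limma adjusted p = 0.021; chromosome 11, 120948480 to 120960868). MCT4 was the minor of both transporters at 6.26% ± 0.86 of their summed FPKM in treated cells and 7.46% ± 0.14 in controls.

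Pdk1 encodes a kinase that inactivates pyruvate dehydrogenase and so limits the use of pyruvate inside the mitochondria. It had 5.54, 5.45 and 5.26 FPKM in treated cells, against 6.50, 6.33 and 6.46 FPKM in controls. Replicates were tight and the groups clearly apart, with a log2 fold change of −0.21 (SE 0.053, limma adjusted p = 0.036; chromosome 2, 71873224 to 71903858). The call of Pdk1 was nevertheless lost with any 1 library left out (limma adjusted p up to 0.13). That of Slc16a1 held only without control replicate 1 (adjusted p up to 0.079 without another), and that of Slc16a3 was lost without nattokinase replicate 3 or control replicate 2 or 3 (adjusted p up to 0.080).

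**Figure D4:**
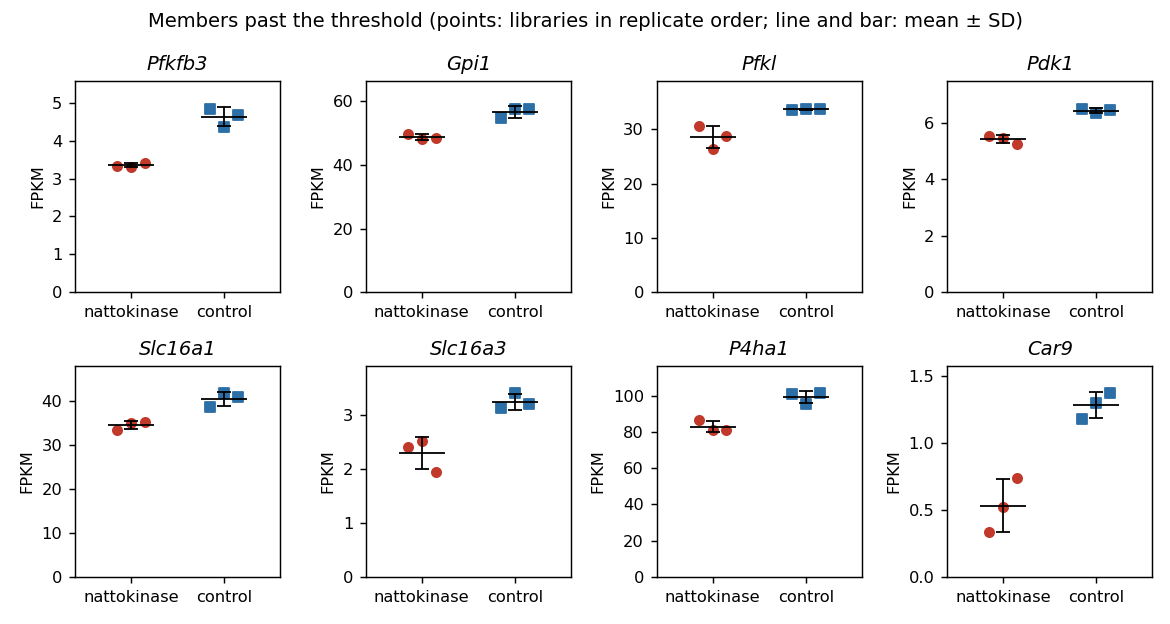
FPKM of the 8 members with an adjusted p under 0.05, nattokinase left and control right, one point per library with the mean and SD (n = 3 each) in black, on axes that start at 0. In all 8 panels the 3 nattokinase points lie below the 3 control points, as for 11.4% of all tested genes. The panels show members picked because they were called lower, so this separation is no further support. The mean of Car9, which passed the filter only through the controls, is at 0.414 of its control mean.

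Neither Hif1a nor the hydroxylase members Egln1 and Egln3 passed the test. Hif1a, which encodes the oxygen-regulated subunit, had 22.9, 24.1 and 20.2 FPKM in treated cells and 23.2, 20.3 and 21.4 FPKM in controls. These ranges nearly coincide, with a log2 fold change of 0.04 (interval −0.11 to 0.20, limma adjusted p = 0.77). HIF1A is known to be controlled mainly at the protein level, which was not measured. Egln1, the main HIF prolyl hydroxylase gene, averaged 19.2 ± 0.37 FPKM in treated cells and 19.6 ± 0.57 FPKM in controls, with an interval of −0.13 to 0.07. Egln3, a hydroxylase gene that HIF itself induces, had 1.98, 1.80 and 1.86 FPKM in treated cells and 2.48, 1.87 and 1.62 FPKM in controls. Its controls spread on both sides of the treated libraries, and its interval of −0.28 to 0.19 is wide.

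P4ha1 fell among the HIF-responsive members. P4ha1, a subunit of the prolyl hydroxylase that stabilises collagen, had 86.3, 80.9 and 81.2 FPKM in treated cells, against 100.6, 95.3 and 101 FPKM in controls. The log2 fold change was −0.26 (SE 0.048, limma adjusted p = 0.0097; chromosome 10, 59323296 to 59373304), and the call was lost without nattokinase replicate 2 or 3 (limma adjusted p up to 0.056). The related gene P4ha2 averaged 9.78 ± 0.78 FPKM in treated cells and 10.6 ± 0.12 FPKM in controls and did not pass (limma adjusted p = 0.31).

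Car9, which encodes the cell-surface carbonic anhydrase IX, a widely used hypoxia marker, was low in all libraries. It had 0.337, 0.520 and 0.734 FPKM in treated cells, against 1.18, 1.30 and 1.37 FPKM in controls, on 14 to 52 reads per library. Treated libraries reached 0.414 of the control mean, with a log2 fold change of −0.58 (chromosome 4, 43506966 to 43513729). Without the filter on low values Car9 did not pass (limma adjusted p = 0.075). Exons of the opposite-strand gene Gm12454, listed at 0.531 FPKM in treated cells and 0.754 FPKM in controls, cover 9.29% of those of Car9. Car12, a second membrane carbonic anhydrase gene, had 0.737, 0.661 and 0.524 FPKM in treated cells, against 1.11, 1.02 and 1.08 FPKM in controls. Its groups do not overlap either, and treated libraries reached 0.598 of the control mean (log2 fold change −0.34). Its side of the threshold changed with the setting, with a limma adjusted p of 0.053, of 0.14 without the filter, and of 0.0017 to 0.044 with limma-voom, protein-coding totals and quantile normalization, where it was past it. Car9 and Car12 passed the filter only through the controls, so none of these values is support for a difference.

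Other HIF-responsive members gave small differences. Ndrg1, a stress and differentiation gene, had 11.6, 11.1 and 11.2 FPKM in treated cells and 10.7, 11.2 and 10.99 FPKM in controls, with an interval of −0.07 to 0.15. The mitophagy receptor genes Bnip3 and Bnip3l averaged 4.86 ± 0.46 and 34.8 ± 1.46 FPKM in treated cells, against 4.604 ± 0.231 and 33.8 ± 1.39 FPKM in controls. Kdm3a, a histone demethylase gene, averaged 4.14 ± 0.19 FPKM in treated cells and 4.07 ± 0.047 FPKM in controls, and its adjusted p was 0.88 by limma. Mif had a log2 fold change of −0.04, with overlapping groups. Counts of Ankrd37 ran from 12 to 34 reads per library, and its exons overlap those of Lrp2bp over 22.7% and of Ufsp2, an expressed gene, over 3.70%. Ankrd37 had 0.865, 1.001 and 0.992 FPKM in treated cells, between the control values of 1.36, 0.518 and 0.906 FPKM. Adm had 1 or 2 reads in nattokinase replicates 1 and 2 and 0 reads in the other 4 libraries, which for each of these allows up to 3 reads.

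Genes around the pathway that are not members were taken from 4 lists, of which 97 genes were tested, with 7 higher and 2 lower, that is 9.28% in either direction beside 8.85% of all tested genes. Among 21 tested genes of glucose uptake and pyruvate use 1 rose and 0 fell. At an unadjusted p under 0.05, 1 was higher and 1 lower, where 14.2% of all tested genes were higher and 8.67% lower. By limma-voom 1 was higher and 1 lower, where 872 of all 10913 tested genes were higher and 462 lower. Dld, the gene that rose, encodes a shared subunit of the pyruvate dehydrogenase complex and averaged 26.5 ± 1.94 FPKM in treated cells and 21.98 ± 0.705 FPKM in controls (log2 fold change 0.26, limma adjusted p = 0.022). Its call was lost in 4 of 16 alternatives, among them without nattokinase replicate 1 or 2 or control replicate 2 (limma adjusted p up to 0.084). Among 22 genes of the pentose phosphate pathway and glycogen 0 passed limma in either direction. At an unadjusted p under 0.05, 1 of them was higher and 6 lower, where 14.2% of all tested genes were higher and 8.67% lower. By limma-voom 1 of them was higher and 1 lower, beside the same 872 and 462 of all tested genes. The median of this list was −0.05.

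Of 21 tested regulators of HIF 2 rose and 0 fell, beside 5.61% of all tested genes higher and 3.24% lower. At an unadjusted p under 0.05, 5 were higher and 1 lower, where 14.2% of all tested genes were higher and 8.67% lower. By limma-voom 3 were higher and 1 lower, where 872 of all 10913 tested genes were higher and 462 lower. Cited2, a HIF target that competes with HIF1A for its coactivators CBP and p300, had 58.4, 57.3 and 56.1 FPKM in treated cells, against 43.7, 44.0 and 47.2 FPKM in controls. All treated libraries were well above the controls, with a log2 fold change of 0.34 (SE 0.047, limma adjusted p = 0.0018), and its call held in all 16 alternatives. Arnt2, a partner subunit gene, averaged 1.79 ± 0.13 FPKM in treated cells and 1.17 ± 0.066 FPKM in controls (limma adjusted p = 0.021, and from 0.00071 to 0.10 over 15 alternatives). Its paralog Arnt, the VHL gene and Egln2 did not pass, with log2 fold changes of −0.06, −0.02 and −0.05. Epas1, which encodes HIF2A and is typical of endothelium, was below the filter at 0.547 ± 0.037 FPKM in treated cells and 0.628 ± 0.19 FPKM in controls.

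Of 34 further tested genes known to respond to HIF 4 rose, 2 fell and 28 did not pass, beside 5.61% of all tested genes higher and 3.24% lower. Errfi1, an inhibitor of the EGF receptor, averaged 11.9 ± 0.29 FPKM in treated cells and 7.40 ± 0.39 FPKM in controls (log2 fold change 0.62, limma adjusted p = 0.00021). Wsb1, a ubiquitin ligase subunit gene, Hmox1, which encodes heme oxygenase, and the lysyl oxidase gene Lox rose with log2 fold changes of 0.32, 0.31 and 0.27 (limma adjusted p = 0.0028, 0.0065 and 0.028). Lower were Zfp395, a zinc finger gene, at −0.32, and the mitochondrial protease gene Lonp1 at −0.18. Vegfa, the angiogenic growth factor gene, averaged 27.1 ± 0.98 FPKM in treated cells and 25.6 ± 0.54 FPKM in controls and did not pass (limma adjusted p = 0.33). The call of Lox was lost in 7 of 16 alternatives and that of Lonp1 in 6 of 16.

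The libraries held 15044778 to 18341370 assigned reads. A ribosomal transcript, CT010467.1, took 0.525% to 0.61% of the reads in treated libraries and 1.85% to 2.89% in controls. Protein-coding genes took 98.3% to 98.4% in treated libraries and 95.4% to 96.7% in controls. With values rescaled to equal protein-coding totals, the same 6 glycolysis members fell. Over all genes 478 then rose and 497 fell, beside 612 higher and 354 lower with values as deposited. Of 12 endothelial markers 1 passed the filter (Flt1, higher in treated cells), and their summed level was 5.36 to 5.78 FPKM in treated cells and 2.95 to 3.99 FPKM in controls. No read of Emcn, Cldn5, Tie1 or Erg was found, so most of these endothelial markers were at or near 0. Of 4 lymphatic endothelial markers, Lyve1 and Prox1 had 0 reads. Flt4 averaged 10.7 FPKM in treated cells and 11.2 FPKM in controls and did not pass, and Pdpn, which fibroblasts can also express, fell to 102 FPKM in treated cells, against 119 FPKM in controls (limma adjusted p = 0.027). The summed level of the 4 was 109.7 to 115 FPKM in treated cells and 125 to 136 FPKM in controls. Of 11 fibroblast and mural markers 7 passed, with Acta2 called higher and Col3a1 called lower. The summed level of these markers was 2765 to 2836 FPKM in treated cells and 2538 to 2648 FPKM in controls. Acta2 averaged 907 FPKM in treated cells and 459 FPKM in controls. Col1a1 averaged 1236 FPKM in treated cells and 1403 FPKM in controls, and Col3a1 95.8 and 144 FPKM. Of the 7 tested, 3 had a log2 fold change below 0, so the higher sum does not describe each marker. Of 7 leukocyte markers 2 passed (Cd14, not called, and Cd68, higher at 2.42 FPKM in treated cells and 1.19 FPKM in controls), summing to 8.04 to 8.34 FPKM in treated cells and 6.00 to 7.37 FPKM in controls, while Ptprc, Itgam, Adgre1 and Cd3e were at 0. The part of these shifts in the members' changes was not tested.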

How the data were processed

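Libraries were made from total RNA with an Illumina procedure, per the labels' protocols, which do not mention strandedness or RNA selection. The submitters' processing notes name Trimmomatic 0.38, the aligner HISAT2 2.1.0, the counter featureCounts 1.6.0 and the package DESeq2 1.22.1, and the human build GRCh38 although all identifiers belong to mouse. Each library's values were deposited by the authors in FPKM, a unit inferred from the values: multiplied by GENCODE M21 merged exon length, 100% of values above 0 were whole multiples of 1 step per library, within 0.05. Reads were recovered from these steps, and they may be read pairs. A count of 0 allows up to 3 reads, or 0.082 to 0.1 FPKM over 2 kb of exons, for counting error only. The symbol Aldoa belongs to 2 identifiers, and the one with more reads was used. The other, with 2 to 20 reads per library, averaged 0.996 FPKM in treated cells and 0.464 FPKM in controls. Its groups overlap, and it was not tested.

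Values were tested with limma 3.58.1 in R 4.3.3 on log2(FPKM + 1), with intensity trend and robust prior, two-sided, keeping genes that reached 1 FPKM in 3 or more libraries. SE and 95% intervals are from that fit. The count test that the plan kept for count files was not needed. Scripts were tested on simulated libraries. Members, lists and alternatives were chosen with earlier results of these data known. All members are accounted for. Values per library are given for members called and always for Slc2a1, Hk2, Pfkfb3, Gapdh, Pgk1, Ldha, Egln3, Ankrd37, Car9, Adm, Ndrg1 and Hif1a, and up to 6 called genes per direction are named from each other list. Other values per library, and the genes Vegfa, Arnt, Vhl, Egln2 and Epas1, were chosen after their values were seen. Within groups, log2 values of replicates correlated at 0.992 to 0.995, and replicate counts differed by more than counting error (mean chi-square per gene 2.56 to 12.2). Promoter windows are from RefSeq (GRCm38.p6), where 34 of 36 members matched. Figures were drawn with matplotlib 3.10.9.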

Additional observations from a re-analysis of the deposited data

How the results depend on the processing

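The 6 glycolysis members that fell also fell with limma-voom on recovered reads, with pseudocounts of 0.1 and 0.5, with a mean of at least 1 FPKM as the filter (an alternative added after seeing the data), with protein-coding totals and with median-of-ratios scaling. Their number was 11 with quantile normalization, 1 without a filter on low values, where 24549 genes were tested, and 1 to 11 with single libraries left out. With a filter at a mean of 5 FPKM it was 4 of 17 tested, and this filter removes Pfkfb3 and Slc16a3. With quantile normalization the median log2 fold change of all tested genes was −0.0042, beside 0.0116 with values as deposited. Whether the count of 11 is particular to the members was not tested. The number of HIF-responsive members past the threshold, 2 with Car9, was 0 without a filter, 1 with a filter at a mean of 5 FPKM, 1 at a mean of 1 FPKM, which removes Car9 and Car12, 3 with limma-voom, protein-coding totals and quantile normalization, which add Car12, and 1 to 2 with single libraries left out. Car9 and Car12 support no count, and apart from them only P4ha1 was called, in 13 of 16 alternatives. In all of these settings 0 members rose. Of the 97 other pathway genes tested with values as deposited, 7 rose and 2 fell. Without a filter 3 of the other pathway genes rose and 0 fell, and 8 fell with limma-voom, 7 with protein-coding totals, 4 with quantile normalization and 4 at a mean of 5 FPKM. With single libraries left out, 4 to 8 of them rose and 1 to 6 fell. Over all genes 872 rose and 462 fell with limma-voom, and 478 rose and 497 fell with protein-coding totals, beside 612 and 354 with values as deposited. Without a filter 221 of all genes rose and 109 fell, and 328 to 720 rose and 197 to 486 fell with single libraries left out.

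With the replicate number as a block, 3 glycolysis members (Pfkfb3, Slc16a1 and Slc16a3) and 1 of the other pathway genes fell. Whether these smaller counts are particular to the members and pathway genes was not tested. Libraries with the same number did not deviate together (correlations of −0.089, −0.044 and −0.059 across genes), so the numbers give no pairing.

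Directions turned only for members that did not pass in any setting. With protein-coding totals the log2 fold changes of Hk1 and Kdm3a were −0.00011 and −0.0080. With single libraries left out, Eno2 ran from −0.074 to 0.058 (0.0093 without nattokinase replicate 2 and 0.037 without control replicate 3), Ldha from −0.091 to 0.019, Egln3 from −0.13 to 0.071, Kdm3a from −0.0032 to 0.049, Hif1a from −0.0075 to 0.11 and Mif from −0.10 to 0.0055. Low read numbers limit Car9, Car12, Ankrd37, Aldoc and Adm. The cause of these shifts was not tested.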
